A study of Mus musculus with 6 samples.

Results

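The genes described here cause or have been linked to inherited parkinsonism in people. They were listed apart from the genes of the pathway that clears damaged mitochondria, which does not mean that each acts outside it. They are Lrrk2, Uchl1, Fbxo7, Vps35, Atp13a2, Pla2g6, Synj1 and Gigyf2. Their members on the array are the probe sets whose platform annotation names exactly 1 gene symbol and whose symbol is on this list. That rule found 19 probe sets for all 8 genes, among 45037 tested probe sets and 18193 named genes. The rule uses annotation alone, but the list itself was drawn up with earlier results of these data known. Uchl1, Lrrk2 and Fbxo7 had 1 probe set each, Vps35 had 2, Atp13a2 and Pla2g6 had 3 each, and Synj1 and Gigyf2 had 4 each.

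The samples were cortex at postnatal day 29 from wild type mice (WT, 3 arrays) and from littermates labelled as HtrA2 knockout (HtrA2_KO, 3 arrays). HtrA2 is a mitochondrial serine protease that has itself been listed as a parkinsonism locus. The labels give neither the knockout allele nor the strain, and nothing in them ties each array to its own animal, so p-values measure the spread between these arrays, which may be technical. Whole tissue was measured, so fewer cells of a type and less RNA per cell cannot be told apart.

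The 8 proteins work at several points of the same neurons. LRRK2 is a large kinase that phosphorylates Rab GTPases on intracellular membranes. UCHL1 is an abundant neuronal deubiquitinase, and FBXO7 is the substrate receptor of an SCF ubiquitin ligase that also binds proteasome regulators. VPS35 is the core of retromer, which returns cargo from endosomes, and ATP13A2 is a lysosomal P-type ATPase that exports polyamines. SYNJ1 is a phosphoinositide phosphatase that uncoats synaptic vesicles after endocytosis, PLA2G6 is a calcium-independent phospholipase, and GIGYF2 is a scaffold that joins the cap-binding protein 4EHP to repress translation. The standing of UCHL1 and GIGYF2 as disease genes has been questioned since their first reports.

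The upstream sequences of the 2 members whose levels differed most, Gigyf2 and Lrrk2, are shown here because no sequence of the probes was at hand and the results turn on these genes. Each run holds the 250 bases before the RefSeq transcription start in assembly GRCm38.p6, read 5′ to 3′ on the gene's strand, with matches to the SP1 box GGGCGG and to the NRF1 site, the longer run of capitals in the Gigyf2 sequence, in capitals.
Gigyf2, plus strand, chr1:87326748-87326997: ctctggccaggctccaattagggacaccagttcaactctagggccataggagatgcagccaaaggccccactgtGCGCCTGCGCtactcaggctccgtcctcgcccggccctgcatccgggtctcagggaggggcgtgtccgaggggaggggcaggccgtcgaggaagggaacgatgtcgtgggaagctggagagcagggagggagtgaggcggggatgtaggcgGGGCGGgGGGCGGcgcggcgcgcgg
Lrrk2, plus strand, chr15:91672974-91673223: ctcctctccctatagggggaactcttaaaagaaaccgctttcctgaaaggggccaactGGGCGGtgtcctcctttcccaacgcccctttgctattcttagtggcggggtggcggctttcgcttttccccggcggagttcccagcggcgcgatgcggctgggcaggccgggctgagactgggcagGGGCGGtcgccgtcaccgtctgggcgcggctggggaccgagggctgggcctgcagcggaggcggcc

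The Gigyf2 run held 2 SP1 boxes, at positions -25 and -18 from the transcription start, and 1 NRF1 site at -176. The Lrrk2 run held 2 SP1 boxes, at -192 and -66. Both strands were searched, and a match was found in 32.7% of all 32851 upstream windows of this length for the SP1 box and in 3.74% for the NRF1 site. Among the 9 windows that RefSeq gave for 7 of the 8 members, 5 held the SP1 box and 2, of Gigyf2 and Fbxo7, held the NRF1 site. The C/EBP-ATF element TGATGNAA was in 0 of the 9 and in 3.45% of all windows, which says only that these letters are not in these windows. These matches are descriptions and were not tied to the array values.

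Values are RMA levels, that is background-corrected, normalized array brightness on the log2 scale, with 1 unit standing for a 2-fold difference. A level depends on the probes, so it is compared between arrays for a given probe set and not between probe sets; the array median serves only as a coarse mark of dim signal. Differences are HtrA2_KO minus WT, ± gives the standard error of a difference unless it is called SD, and each group had n = 3 arrays. Probe sets were tested with limma, the p-values were adjusted by the Benjamini-Hochberg method across the 45037 probe sets, and a probe set was called at an adjusted p under 0.05. "Rose" and "fell" are kept for called probe sets.

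The knocked-out gene was checked first: at 1 Htra2 probe set the level was 8.92 ± 0.0833 (SD) in WT and 6.65 ± 0.374 (SD) in HtrA2_KO, so that it fell by 2.27 ± 0.17 (adjusted p = 0.00227 by limma). A second Htra2 probe set went against the label: it rose by 1.11 ± 0.076, from 8.21 ± 0.0833 (SD) to 9.33 ± 0.0444 (SD), with adjusted p = 0.00169 by limma. Neither could be placed on the deleted sequence. All 10 neuronal markers listed for the cortex were measured, with mean levels of 9.96 or more where the array medians were 6.40 to 6.45, which is a coarse check of detection and no comparison between genes. Array HtrA2_KO replicate 2 stood apart, with a lower quartile of 4.90 against 4.76 to 4.82 in the other 5 arrays and a mean absolute deviation from its group of 0.136 against 0.0618 to 0.0956. WT replicate 2 carried a high level of choroid plexus markers, 8.70 against 6.26 to 6.87 elsewhere, led by Ttr at 12.86. Marker genes had a lower mean in the knockout at 6 of 8 for astrocytes, 6 of 6 for oligodendrocytes, 3 of 3 for choroid plexus and 2 of 2 for blood, and at 1 of 4 for endothelial cells and 0 of 5 for meninges. The called ones among these were 3 astrocyte genes and 1 blood gene. Y-linked transcripts were low in 1 array of each group (3.89 and 3.93) and high in the other 4 (5.90 to 6.00), so each group held RNA of more than 1 animal.

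Gigyf2 was the 1 member gene of 8 with called probe sets: 2 of its 4 probe sets fell in the knockout cortex, by 2.45-fold and 1.99-fold. These were also the 2 of 19 member probe sets called, against 1.77% of all probe sets, 0.884% lower and 0.884% higher. Of all genes with 4 probe sets, 4.94% had at least 1 called. The other 7 genes, with 15 probe sets, had 0 called, and the smallest adjusted p among them was 0.0713, for Lrrk2. At an unadjusted p under 0.05 by limma, 5 of the 19 passed, all lower, against 16.9% of all probe sets passing in either direction and 8.55% passing as lower. The 5 were 3 probe sets of Gigyf2 and those of Lrrk2 and Uchl1.

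**Figure D1:**
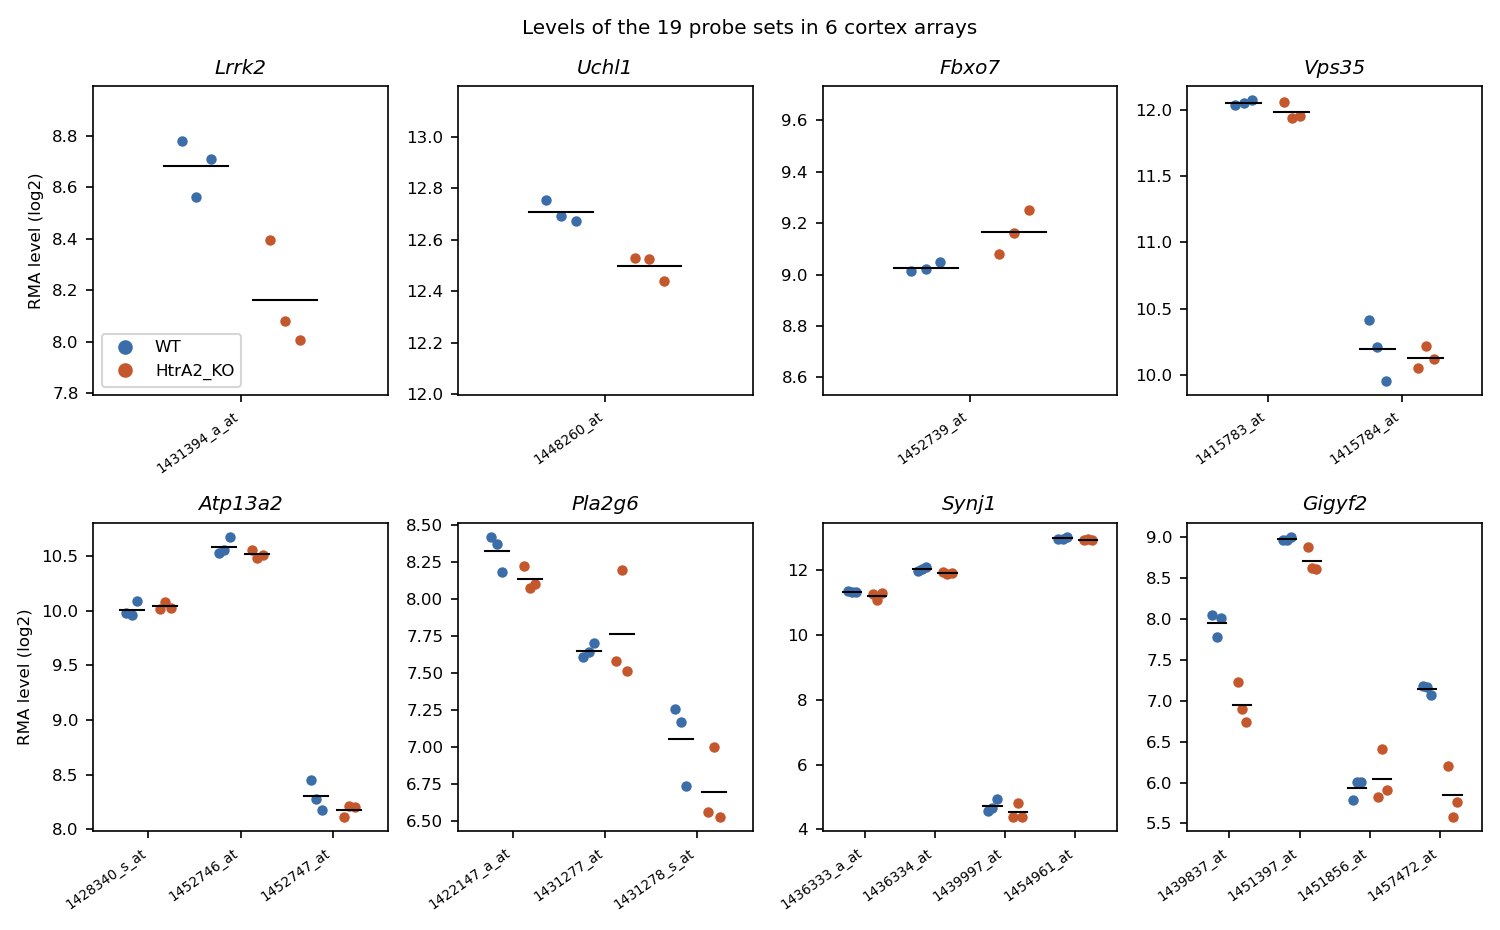
RMA level (log2) of each of the 19 probe sets, 1 panel per gene, with 3 WT arrays in blue, 3 HtrA2_KO arrays in orange and the group mean as a bar; the vertical scale differs between panels. The groups separate by about 1 unit at Gigyf2 1439837_at (7.95 against 6.95) and 1457472_at (7.14 against 5.85), and lie close together or overlap at Vps35, Atp13a2 and Synj1.

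Most member probe sets lay lower in the knockout. The mean was lower at 15 of 19, where 48.7% of all probe sets had a lower mean, and the median difference was -0.12 against 0.0048 over all probe sets. The 2 groups did not overlap at 8 of 19 member probe sets, 7 of them lower, against 23.2% of all probe sets in either direction and 11.6% lower. Without Gigyf2, 12 of 15 had a lower mean, the median was -0.11, and the groups did not overlap at 5 of 15, 4 of them lower. In each knockout array the majority lay below the wild type mean: 16, 13 and 17 of 19 in replicates 1, 2 and 3. The share of all probe sets below that mean was not computed by array, and probe sets of the same gene are not independent. The members do not share one gene or function, so these counts describe a list and carry no test.

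**Figure D2:**
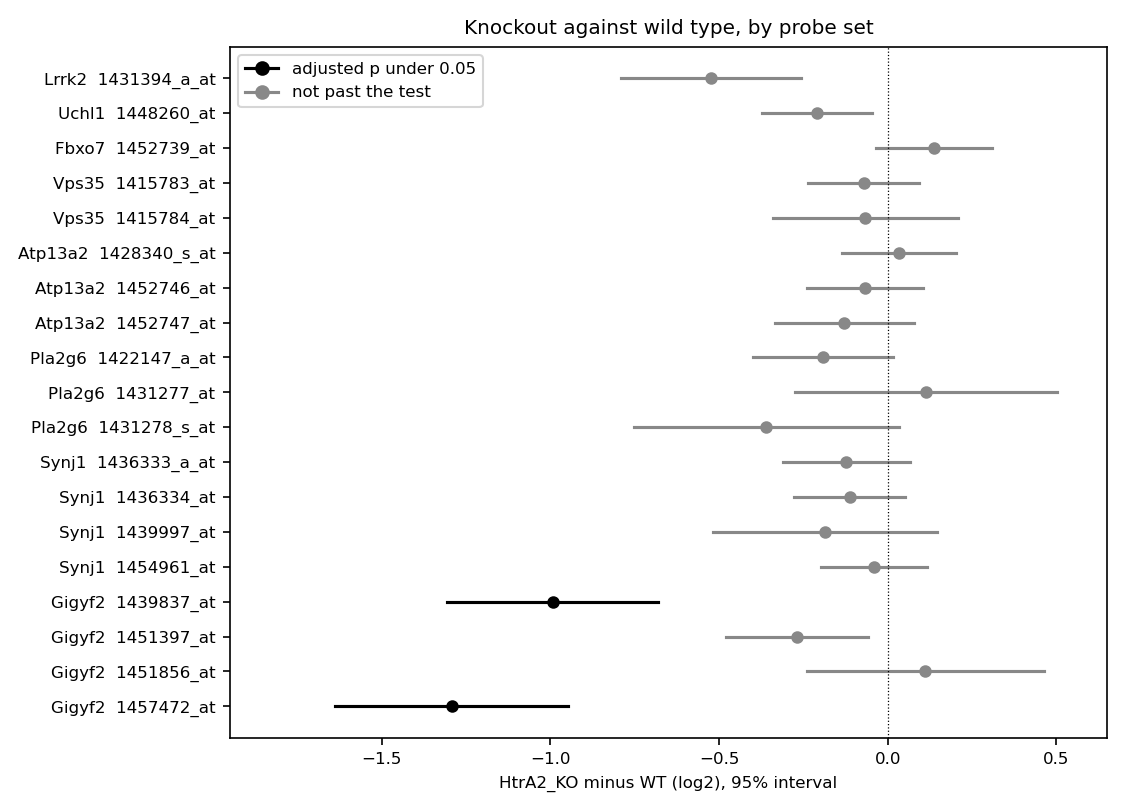
Difference between HtrA2_KO and WT (log2) for each of the 19 probe sets with its 95% interval from the limma fit, called probe sets in black and others in grey. The intervals of Gigyf2 1457472_at (-1.64 to -0.95) and 1439837_at (-1.31 to -0.68) lie far below 0, and the 4 probe sets of Synj1 all lie near 0.

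Gigyf2, the translational repressor scaffold, had its largest difference at probe set 1457472_at. There the level was 7.18, 7.17 and 7.07 in WT replicates 1, 2 and 3 and 6.21, 5.57 and 5.76 in HtrA2_KO replicates 1, 2 and 3. Every knockout array lay below every wild type array, with replicate 1 nearest to wild type. The knockout values also lay below the array medians of 6.40 to 6.45, and the wild type values above them. The probe set fell by 1.29 ± 0.15 on the log2 scale (adjusted p = 0.0116 by limma), and ranked 95 of 45037 by p.

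Probe set 1439837_at of Gigyf2 read 8.05, 7.78 and 8.01 in WT and 7.23, 6.90 and 6.74 in HtrA2_KO. Again the groups did not overlap, and knockout replicate 1 was the highest of its group. It fell by 0.99 ± 0.14 (adjusted p = 0.0183 by limma), rank 199 by p. Over the 6 arrays these 2 probe sets had a Pearson r of 0.97, which mostly restates the gap between the groups.

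The other 2 Gigyf2 probe sets differed less. At 1451397_at the level was 8.97, 8.97 and 9.01 in WT and 8.89, 8.63 and 8.61 in HtrA2_KO, so the groups did not overlap but knockout replicate 1 lay only slightly below wild type. The difference was -0.27 ± 0.091 (adjusted p = 0.185 by limma). At 1451856_at it was 5.79, 6.01 and 6.01 in WT and 5.82, 6.41 and 5.91 in HtrA2_KO, with overlapping groups and a difference of 0.11 ± 0.15 (adjusted p = 0.786 by limma). That probe set lay below the median of every array, as 1457472_at did in the knockout arrays. The highest value of 1451856_at came from knockout replicate 2, and without that array its difference was -0.068. So of the 4 probe sets of this gene 2 fell, and the other 2 stood on either side of 0 without passing. Differences of both signs were found in 67.2% of the 1093 genes with 4 probe sets.

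**Figure D3:**
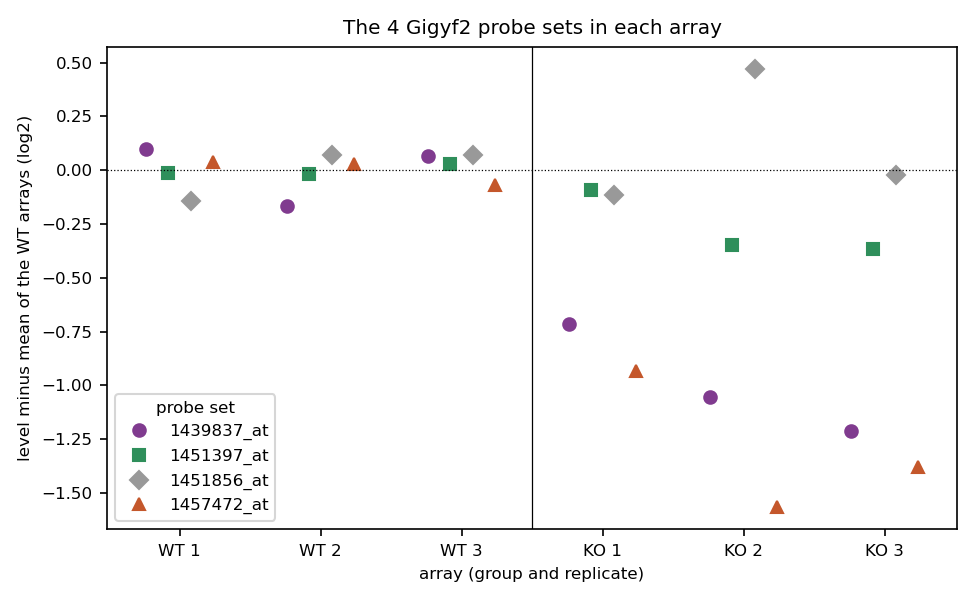
Level of the 4 Gigyf2 probe sets in each array, as the difference (log2) from that probe set's mean over the 3 WT arrays. In the knockout arrays 1457472_at lies between -1.57 and -0.93 and 1439837_at between -1.21 and -0.71, while 1451397_at lies between -0.37 and -0.09 and 1451856_at between -0.11 and 0.47.

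Whether the probe sets of a gene responded differently was tested directly, by subtracting them within each array and comparing the groups on that difference for all 30372 within-gene pairs of all genes. Of the 19 pairs among members 1 was called, against 0.171% of all pairs, and 5 had an unadjusted p under 0.05. Those 5 were pairs of Gigyf2 and Pla2g6 alone, and pairs of a gene share probe sets. The share of all pairs at that unadjusted level was not computed, here or for the alternatives below. The called pair was Gigyf2 1457472_at against 1451397_at. Its level difference, 1457472_at minus 1451397_at, was -1.79, -1.80 and -1.94 in WT and -2.68, -3.06 and -2.85 in HtrA2_KO. It changed by -1.02 ± 0.12 (adjusted p = 0.0266 by limma, over all pairs), with no overlap between groups. At least 1 pair was called in 0.322% of all genes with 2 or more probe sets and in 0.64% of those with 4. The fall at 1457472_at was thus larger than the difference at 1451397_at by more than the spread between arrays.

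The other Gigyf2 pairs did not pass. For 1439837_at against 1451397_at the change was 0.72 ± 0.12 (adjusted p = 0.0695), and for 1451856_at against 1457472_at it was -1.40 ± 0.27 (adjusted p = 0.105), both by limma over all pairs. The 2 called probe sets, 1439837_at and 1457472_at, differed from each other in their change by -0.30 ± 0.14 (adjusted p = 0.445 by limma). The span between the largest and smallest change within Gigyf2 was 1.40. Of 1093 genes with 4 probe sets only 2, Ttr and Gas5, had a larger span, and their median span was 0.24. RefSeq lists 11 transcripts of Gigyf2, 2 of them curated mRNAs, and which of them each probe set reads was not determined.

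**Figure D4:**
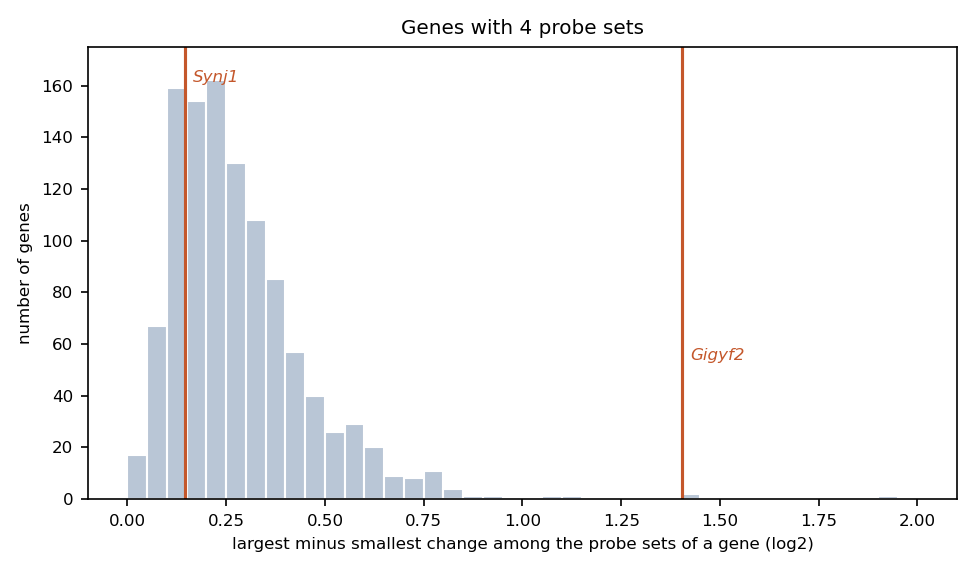
Number of genes (vertical axis) by the span between the largest and smallest change (log2) among their probe sets, for the 1093 genes with 4 probe sets; lines mark the 2 member genes of that kind. Synj1 (0.15) lies left of the bulk median of 0.24, and Gigyf2 (1.40) lies in the far right tail.

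The Gigyf2 calls rested on few arrays. Both were kept without knockout replicate 1 or 2 and both were lost without wild type replicate 1, 2 or 3 or knockout replicate 3. In these 6 omissions the difference at 1457472_at stayed between -1.47 and -1.16 (adjusted p from 0.00511 to 0.0839), and that at 1439837_at between -1.13 and -0.88 (adjusted p from 0.0190 to 0.113), by limma. In the 4 omissions that lost both calls, 65 to 107 probe sets were called on the whole array, against 796 with all arrays. Where both were kept, 377 were called without knockout replicate 1 and 3037 without knockout replicate 2. The called pair was kept without knockout replicate 1 or 2, and 0 pairs of members passed without any of the other 4 arrays, where 4 to 6 pairs had an unadjusted p under 0.05 by limma. In those 4 omissions its change lay between -1.07 and -0.997, against -1.02 with all arrays. It also missed the threshold after quantile normalization (-1.03, adjusted p = 0.0567) and when the Y-linked level was added to the fit (-1.02, adjusted p = 0.0693).

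Lrrk2, the Rab kinase, came next. Its 1 probe set, 1431394_a_at, read 8.78, 8.56 and 8.71 in WT and 8.39, 8.08 and 8.01 in HtrA2_KO. All knockout arrays lay below all wild type arrays, with knockout replicate 1 closest to wild type. The difference was -0.52 ± 0.12, which is 1.44-fold lower, with a 95% interval of -0.79 to -0.26, and it did not pass (adjusted p = 0.0713 by limma). It passed without knockout replicate 1 (-0.64, adjusted p = 0.0446 by limma), and under limma-trend with robust moderation and with array weights (adjusted p = 0.0384 and 0.0382). These were 3 of 13 refits, with other settings or 1 array left out, and the adjusted p by limma reached 0.265 without WT replicate 1. Limma-trend and array weights also raised the calls on the whole array, from 796 to 1770 and 4205. The suffix _a_at marks a probe set designed to match several transcripts of the same gene.

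In mouse brain Lrrk2 transcript is found in neurons and in oligodendrocyte progenitors, among other cells. The mean marker levels of both were lower in every knockout array than in any wild type array. So were those of microglia, astrocytes, oligodendrocytes, blood and choroid plexus, while endothelial and meningeal markers had a higher mean. Progenitor markers were lower at 4 of 4 genes, 2 of them called, with a mean level of 9.26 to 9.35 in WT and 8.78 to 8.89 in HtrA2_KO. Microglial markers were lower at 7 of 7 measured genes, 3 of them called, with 8.71 to 8.94 in WT and 8.39 to 8.51 in HtrA2_KO. Their part in the Lrrk2 difference was not tested.

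Uchl1, the neuronal deubiquitinase, was measured by 1 probe set, 1448260_at. It read 12.76, 12.69 and 12.67 in WT and 12.53, 12.53 and 12.44 in HtrA2_KO. The groups did not overlap, and the arrays within each group lay within 0.0893 of each other. The difference was small, -0.21 ± 0.071, or 1.16-fold lower, and did not pass (adjusted p = 0.185 by limma). Under limma-trend with robust moderation it passed (adjusted p = 0.0391). This was 1 of 13 refits, and it called 1770 probe sets in all against 796 in the main fit.

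Neuronal markers were read beside it. Of 10 genes 7 had a lower mean and 1 was called, and the mean level of the list was 12.26 to 12.29 in WT and 12.09 to 12.16 in HtrA2_KO, a difference of -0.14. Snap25, a synaptic fusion protein, differed by -0.19 ± 0.068 and Slc17a7, the glutamate transporter of excitatory synapses, by 0.041 ± 0.082. The part of these markers in the Uchl1 difference was not tested.

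Fbxo7 was the 1 member gene whose every probe set lay higher in the knockout. Its probe set 1452739_at read 9.01, 9.02 and 9.05 in WT and 9.08, 9.16 and 9.25 in HtrA2_KO. The lowest knockout array lay just above the highest wild type array. The difference of 0.14 ± 0.075, with a 95% interval of -0.035 to 0.31, did not pass (adjusted p = 0.414 by limma).

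Vps35, the retromer core, gave no call at either of its probe sets, and neither had an unadjusted p under 0.05 by limma. At 1415783_at the level was 12.03, 12.05 and 12.07 in WT and 12.06, 11.93 and 11.95 in HtrA2_KO, with overlapping groups and a difference of -0.071 ± 0.072. At 1415784_at it ranged from 9.96 to 10.41 in WT and from 10.05 to 10.22 in HtrA2_KO, a difference of -0.066 ± 0.12. Without WT replicate 1, the highest array, the second difference was 0.044. The 95% intervals were -0.24 to 0.094 and -0.34 to 0.21. Both probe sets gave nearly the same change, and the change of their difference was 0.0052 ± 0.15.

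Atp13a2, the lysosomal polyamine exporter, had 3 probe sets, with 0 called and 0 at an unadjusted p under 0.05 by limma. The differences were 0.033 ± 0.073 at 1428340_s_at, -0.068 ± 0.075 at 1452746_at and -0.13 ± 0.090 at 1452747_at. The groups overlapped at each of them. At 1452746_at the WT arrays read 10.52, 10.55 and 10.68 and the HtrA2_KO arrays 10.55, 10.49 and 10.51. The suffix _s_at marks a probe set that can also match transcripts of other genes. The largest change between any of its pairs was -0.16 ± 0.12, which did not pass (adjusted p = 0.666 by limma).

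Synj1, the vesicle phosphatase, had a lower mean at each of its 4 probe sets, with differences from -0.19 to -0.041, of which 0 were called and 0 had an unadjusted p under 0.05 by limma. At 1436334_at the level was 11.97, 12.01 and 12.08 in WT and 11.94, 11.87 and 11.91 in HtrA2_KO. At 1436333_a_at it was 11.35, 11.33 and 11.30 in WT and 11.24, 11.07 and 11.29 in HtrA2_KO. The groups did not overlap at either, but at both the gap was smaller than the spread within a group. The differences were -0.11 ± 0.071 and -0.12 ± 0.082 (adjusted p = 0.487 and 0.515 by limma). Probe set 1454961_at differed by -0.041 ± 0.068 and 1439997_at, whose arrays all lay between 4.37 and 4.93 and below the array medians, by -0.19 ± 0.14. RefSeq lists 34 transcripts of Synj1, the most of any member, 2 of them curated mRNAs. The changes at its probe sets spanned 0.15.

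Pla2g6, the phospholipase, had 3 probe sets that disagreed in sign, as did those of 54.0% of the 2366 genes with 3 probe sets. Of the 3, 0 were called and 0 had an unadjusted p under 0.05 by limma. At 1431278_s_at the level was 7.26, 7.17 and 6.73 in WT and 6.56, 7.00 and 6.52 in HtrA2_KO, a difference of -0.36 ± 0.17 (adjusted p = 0.340 by limma). At 1422147_a_at it was 8.42, 8.37 and 8.18 in WT and 8.22, 8.07 and 8.11 in HtrA2_KO, a difference of -0.19 ± 0.090. At both probe sets WT replicate 3 lay nearest to the knockout arrays and the groups overlapped.

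At the third Pla2g6 probe set, 1431277_at, the level was 7.61, 7.64 and 7.70 in WT and 7.58, 8.20 and 7.51 in HtrA2_KO. The mean difference of 0.11 ± 0.17 came from knockout replicate 2, the array that stood apart. Without it the difference was -0.10, so the sign turned, and all 3 probe sets then lay lower. With array weights 1431278_s_at passed (-0.53, adjusted p = 0.0444 by limma). This was 1 of 13 refits, and it called 4205 probe sets in all against 796 in the main fit. The pair 1431278_s_at against 1431277_at changed by -0.47 ± 0.17 (adjusted p = 0.311 by limma), and of 2366 genes with 3 probe sets 185 had a larger span than the 0.47 of Pla2g6.

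Genes that work with the members were read from 9 lists of partners, substrates, paralogs and other parkinsonism genes, chosen with earlier results of these data known. Of 135 listed genes 121 were measured by 300 probe sets, of which 5 were called (1.67%, against 1.77% of all probe sets). Their median difference was -0.013, and 59 (19.7%) had an unadjusted p under 0.05, against 16.9% of all probe sets. For a related gene with several probe sets the one of smallest p is given, so its value can overstate the gene, and the range over the others is given beside it. The called genes were Htra2 itself, called in both directions by its 2 _s_at probe sets, Fbxo9, Pnpla7 and Acsl4.

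Among the partners of GIGYF2 in translational repression, 0 of 13 measured genes passed and 5 of 42 probe sets (11.9%) had an unadjusted p under 0.05 by limma. The list median was 0.018. Grb10, the adaptor through which GIGYF proteins were first found, differed by 0.39 ± 0.13 at 1 of 3 probe sets (0.050 and 0.099 at the others) and Tnrc6b, a scaffold of microRNA silencing, by -0.23 ± 0.082 at 1 of 3 (-0.22 and -0.051 at the others; adjusted p = 0.177 and 0.206 by limma). Eif4e2, which encodes 4EHP, had 5 probe sets that differed by -0.17 to 0.23 with 0 called.

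Retromer and its partners also had 0 of 18 genes past the test, although 15 of 49 probe sets (30.6%, against 16.9% of all) had an unadjusted p under 0.05 by limma, 9 of them lower and 6 higher. Sorl1, a sorting receptor carried by retromer, differed by -0.33 ± 0.071 (adjusted p = 0.0644 by limma) at 1 of 3 probe sets, with -0.49 and -0.19 at the others. The level there was 12.26, 12.23 and 12.22 in WT and 11.82, 11.93 and 11.94 in HtrA2_KO. Vps29, the retromer subunit that binds VPS35, differed by -0.30 ± 0.080 (adjusted p = 0.110 by limma) at 1 of 5 probe sets. The other Vps29 probe sets disagreed in sign, at -0.26, -0.14, 0.053 and 0.064. Vps26a, another core subunit, named here after its value was seen, had a mean higher by 0.22 (adjusted p = 0.151 by limma).

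In the Lrrk2 list of paralog, Rab substrates and phosphatases, 0 of 16 genes passed and 5 of 36 probe sets (13.9%) had an unadjusted p under 0.05 by limma. Ppm1m, a phosphatase of the family that acts on phosphorylated Rabs, differed by 0.45 ± 0.11 at its 1 probe set (adjusted p = 0.0951 by limma). Rab43, a LRRK2 substrate, differed by 0.32 ± 0.084 at 1 of 3 probe sets (adjusted p = 0.104 by limma) and by -0.068 and -0.0092 at the others. In the Synj1 list of vesicle endocytosis, 0 of 23 genes passed, and the median was -0.052. There 12 of 70 probe sets (17.1%, near the 16.9% of all) had an unadjusted p under 0.05 by limma. Of the 70, 11 passed that level as lower, where 8.55% of all probe sets did so. Bin1, an amphiphysin, differed by -0.28 ± 0.080 at 1 of 3 probe sets and by 0.060 and 0.12 at the others. Synj2, the paralog of Synj1, differed by -0.31 ± 0.093 at its probe set of smallest p, and its 6 probe sets ranged from -0.45 to 0.26, 5 of them lower.

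Of 8 genes around Fbxo7 in its ligase and at the proteasome, 1 passed, where 3.3% of all named genes had at least 1 called probe set. In this list 5 of 16 probe sets (31.2%, against 16.9% of all) had an unadjusted p under 0.05 by limma, 2 lower and 3 higher. The gene that passed was Fbxo9, another F-box protein. It fell by 0.41 ± 0.079 (adjusted p = 0.0483 by limma), close to the threshold, with -0.37 at its other probe set. Psmf1, the proteasome inhibitor that binds FBXO7, differed by 0.39 ± 0.11 (adjusted p = 0.128 by limma), and its 4 probe sets ranged from 0.15 to 0.39. Of 4 measured genes of the Uchl1 list 0 passed, with 4 of 10 probe sets (40.0%, of few) at an unadjusted p under 0.05 by limma. Uchl5, a deubiquitinase of the same family, differed by 0.30 ± 0.086 at 1 probe set and -0.17 at the other. Usp14, the deubiquitinase of the proteasome, differed by -0.25 ± 0.098, and its 4 probe sets ranged from -0.25 to 0.058.

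Lysosomal and P5-type ATPase genes around Atp13a2 had 0 of 14 genes past the test and 3 of 33 probe sets (9.09%) at an unadjusted p under 0.05 by limma, all higher. Ctsb, cathepsin B, differed by 0.33 ± 0.072 (adjusted p = 0.0681 by limma), and its 5 probe sets ranged from -0.0067 to 0.33. Mcoln1, the lysosomal cation channel TRPML1, differed by 0.24 ± 0.072, with 0.056 to 0.24 over 3 probe sets. Among phospholipases and acyl-chain remodelling genes related to Pla2g6, 2 of 12 passed, against 3.3% of all named genes. In that list 6 of 21 probe sets (28.6%, against 16.9% of all) had an unadjusted p under 0.05 by limma, 4 lower and 2 higher. Pnpla7, a lysophospholipase, rose by 0.57 ± 0.10 (adjusted p = 0.0389 by limma), from 7.19, 7.47 and 7.39 in WT to 7.78, 7.94 and 8.03 in HtrA2_KO. Acsl4, which activates arachidonic acid, fell by 0.39 ± 0.075 (adjusted p = 0.0495 by limma), with -0.36 and -0.25 at its other probe sets.

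Of 14 measured other parkinsonism genes, Htra2 alone passed, in both directions, so that 13 did not pass. Vps13c, a lipid transfer protein, differed by -0.25 ± 0.085 (adjusted p = 0.183 by limma) at 1 of 2 probe sets and -0.079 at the other. Mapt, which encodes tau, differed by -0.17 ± 0.069 (adjusted p = 0.256 by limma), with -0.17 to -0.055 over 4 probe sets. The median of that list was -0.025, and 4 of its 27 probe sets (14.8%) had an unadjusted p under 0.05 by limma.

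**Figure D5:**
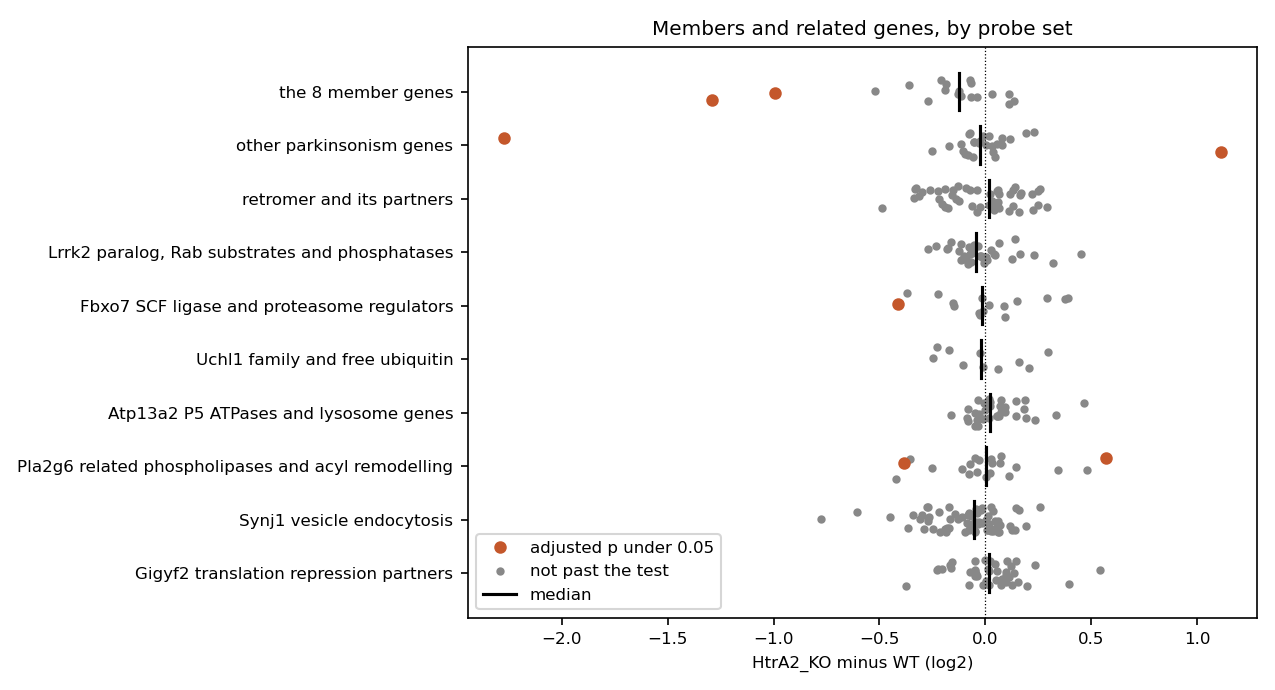
Difference between HtrA2_KO and WT (log2) of every probe set of the 8 member genes and of the 9 related lists, with called probe sets in orange, others in grey and the list median as a bar; vertical scatter within a row only separates points. The member row has a median of -0.12 and 2 called probe sets, and the 9 list medians lie between -0.052 and 0.022.

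The genes nearest to Gigyf2 on its chromosome, taken by their order in the RefSeq table after its values were seen, were also read. Kcnj13, a potassium channel gene that lies within the span of Gigyf2, differed by 0.21 ± 0.26 (adjusted p = 0.767 by limma). Of the 10 nearest protein-coding genes, 5 on either side, 1 was called: Neu2, a sialidase, fell by 0.57 ± 0.099 (adjusted p = 0.0362 by limma), where 3.3% of all named genes had at least 1 called probe set. Eif4e2 is among the 10.

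Across the 6 arrays the probe sets of other genes most like Gigyf2 1457472_at were those of Sipa1l1, Slitrk4, Eef1akmt1, Shisa4 and Sgip1, with Pearson r of 0.9998, 0.9997, 0.999, 0.999 and 0.998. These are the highest of all named probe sets over only 6 arrays, which share the gap between the groups, and they are given as a description. Slitrk4 and Eef1akmt1 fell, by 0.61 ± 0.091 and 0.49 ± 0.083 (adjusted p = 0.0229 and 0.0349 by limma). Sipa1l1, Shisa4 and Sgip1 differed by -0.28, -0.36 and -0.19 without passing.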

How the data were processed

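Cortex RNA of 6 samples, 3 WT and 3 HtrA2_KO by their titles, was measured with Affymetrix arrays. The authors' deposited levels are on the log2 scale. The submitters' processing notes name RMA without a version, and the log base was taken from the range of the values. RMA makes arrays alike in distribution, so a shift shared by most genes would not show. Arrays give no counts, and their number, 3 per group, limits the precision.

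Of 45101 probe sets 64 controls were left out. Of the other 45037, 34945 had 1 gene symbol, 932 several and 9160 none, and 34741 of those with 1 symbol had their gene identifier in RefSeq's table for GRCm38.p6. Some listed genes had no probe set that names them alone and were not analysed here. Groups were compared by limma 3.58.1 under R 4.3.3 (lmFit, then eBayes; two-sided tests) on group alone. The same fit was run on differences between probe sets of a gene. Both fits were also run on simulated data with independent noise at each probe set and array, and the outcome is not given here.

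The members and lists were chosen with earlier results of these data known. Named genes were all members, Htra2, related genes past the test, the 2 of smallest p in each list, and the 5 genes most like the member probe set of smallest p; Eif4e2, Vps26a, Kcnj13, Neu2, Ttr, Gas5, Snap25 and Slc17a7 were added after the values were seen. Alternatives were a floor of 5 on the mean level, limma-trend with robust moderation, quantile normalization, median centring, array weights, a replicate block, the Y-linked level as a covariate, a threshold of 0.10, 1 probe set per gene and leaving out each array.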

Additional observations from a re-analysis of the deposited data

How the results depend on the processing

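The 2 Gigyf2 calls were kept under all 7 alternatives that used all 6 arrays and all probe sets of a gene. Under limma-trend with robust moderation 4 member probe sets of 3 genes were called, with 10 related and 1770 probe sets in all, and with array weights 4 of 3 genes, with 5 member pairs, 31 related and 4205 in all. No member pair passed after quantile normalization or with the Y-linked covariate (0 each, with 6 and 5 at an unadjusted p under 0.05 by limma); the covariate left 3 related and 441 probe sets, and median centring left 3 related. At an adjusted p under 0.10, 2 genes, 2 member pairs, 10 related and 2035 probe sets passed. With 1 probe set per gene, the one of highest mean, 0 of 8 member genes passed, since this takes Gigyf2 1451397_at. At an unadjusted p under 0.05 by limma 3 of the 8 passed, and the share of all genes was not computed.

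Replicate numbers did not pair the arrays: same-numbered arrays had deviations that correlated at -0.20, -0.041 and -0.17. With a replicate block 2 member probe sets, 2 related and 154 in all were called, and the 1 called member pair was Gigyf2 1439837_at against 1451856_at, not the pair called without the block, whose change stayed at -1.02 (adjusted p = 0.0611 by limma).

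Leaving out 1 array gave 0 to 3 member probe sets, 0 to 2 member genes, 0 to 3 member pairs, 2 to 21 related and 65 to 3037 probe sets in all. In the 4 omissions with 0 member calls, 3 to 6 of the 19 member probe sets had an unadjusted p under 0.05 by limma. The share of all probe sets at that level was 16.9% with all arrays and was not computed for these omissions. Of 273 values of single member probe sets 254 kept their direction and side of the threshold, 8 lost and 6 gained a call, and 5 turned sign: Pla2g6 1431277_at (-0.034 with array weights, -0.10 without HtrA2_KO replicate 2), Gigyf2 1451856_at (-0.027 and -0.068 in the same settings) and Vps35 1415784_at (0.044 without WT replicate 1). None of these was called, and with 1 array left out they ranged from -0.10 to 0.24, from -0.068 to 0.22 and from -0.19 to 0.044. Beyond what is said above, the cause was not tested.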
